A study of Mus musculus with 16 samples.

Results

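RNA from 16 mouse livers was examined here for 10 genes that carry cholesterol out of cells and build or remodel high-density lipoprotein (HDL): the transporters Abcg5, Abcg8, Abca1 and Abcg1, the receptor Scarb1, the plasma enzymes Lcat and Lipc, the transfer protein Pltp, and the apolipoproteins Apoa1 and Apoa2. They were taken by gene symbol from the expression tables of all livers, 10 genes of 17410, and all 10 passed the filter on low counts in each comparison. Their symbols were chosen by function, with earlier results of these data known. The study asked what the alpha isoform of ChREBP, a sugar-responsive transcription factor encoded by Mlxipl, does in livers of mice fed diets that cause steatohepatitis. LKO_NASH (livers 21 to 24) and WT_NASH (livers 17 to 20) are Chrebpα-flox/flox mice that received an adeno-associated virus with the hepatocyte promoter TBG, driving Cre recombinase in LKO_NASH and GFP in WT_NASH. Their NASH diet, eaten during 12 weeks, drew 40% of its energy from fat and 20% from fructose and had 2% cholesterol; the labels give no age for them. Ad_Chrebpa_HFLMCD (livers 13 to 16) and Ad_GFP_HFLMCD (livers 9 to 12) are wildtype mice, 2 months old when the diet began, given adenovirus for Chrebpα or for GFP 1 week before dissection. Both ate the HFLMCD diet, with 45% of calories from fat, no choline and 0.1% added methionine, for 3 weeks. Each group holds 4 livers, and the labels do not say outright that each is a separate animal, so the p-values below speak only for the spread among these livers, which may be technical.

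Hepatocytes clear cholesterol into bile and exchange it with plasma HDL, and these genes serve both routes. ABCG5 and ABCG8 pair at the bile-facing membrane and pump sterols into bile. At the blood side ABCA1 hands cholesterol and phospholipid to lipid-poor apolipoprotein A-I, which makes nascent HDL, and ABCG1, abundant in macrophages, adds cholesterol to mature HDL. In plasma LCAT esterifies HDL cholesterol, PLTP moves phospholipid between particles, hepatic lipase (Lipc) trims HDL lipids, and the receptor SR-BI (Scarb1) takes HDL cholesterol ester back into the hepatocyte. Abcg5, Abcg8, Abca1, Abcg1 and Pltp are known targets of the oxysterol receptors LXRα and LXRβ.

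Abcg5 and Abcg8 lie head to head, and the stretch between their start sites is shown because the levels of these genes tracked each other across the livers. In RefSeq's annotation of GRCm38.p6 it runs over chr17:84683012-84683120, is read here on the plus strand towards Abcg8, and holds 109 bases. Capitals mark 2 matches to TTATCT, the reverse complement of AGATAA, the motif of GATA factors. The Abca1 promoter is shown for contrast, since Abca1 had another profile: the 160 bases before its RefSeq start at chr4:53159896-53160055, minus strand. Capitals there mark the E box CACGTG, 147 bases before the start, and, 67 bases before the start, a match to the LXR element known from the human ABCA1 promoter (searched as TGACCG, 1 free base, TAG, then TAACC).
Abcg5-Abcg8 interval: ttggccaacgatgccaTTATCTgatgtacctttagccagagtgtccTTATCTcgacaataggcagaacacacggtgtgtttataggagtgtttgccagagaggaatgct
Abca1 promoter: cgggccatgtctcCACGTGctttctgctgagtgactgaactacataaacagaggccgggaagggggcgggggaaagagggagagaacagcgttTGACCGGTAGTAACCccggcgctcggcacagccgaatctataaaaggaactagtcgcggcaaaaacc
RefSeq promoter windows of 300 bases (250 before to 50 after a start) were held for 8 of the 10 genes, in 11 windows. Both strands were searched for 5 motifs, and any overlap counted. CACGTG stood in the window of Abca1 alone among the 8 genes, and in 7.15% of 32851 windows of all genes. AGGTCA, the nuclear receptor half-site, stood in those of Apoa2 and Lipc, and in 16.3% of all windows. AGATAA stood in those of Abcg5, Abcg8, Lcat and Lipc, and in 11.2% of all windows. The Abcg5 and Abcg8 windows that held it overlap, and their matches are the same sites, so these genes do not count separately. The repeat of AGGTCA with 4 free bases between its copies (DR4) was in none of the 8 genes' windows and in 0.0152% of all. The element of human ABCA1 was in the Abca1 window and in 0.00609% of all windows; this motif and AGATAA were added to the search after results were seen. A match is a description of letters and says nothing of binding.

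The libraries held 21254937 to 40327264 expected counts. Among the 10 genes the smallest count in a liver was 240 (Abcg1) and the largest 323725 (Apoa1). Hepatocyte markers were high in every liver, with 6 of 7 found and summed levels of 30527 to 52436 FPKM (fragments scaled by transcript length and library total by the authors, so levels can be compared between genes), and the 2 adipocyte markers found summed to at most 0.07 FPKM. Total Mlxipl, the gene manipulated, ran over 47.5 to 100.1 FPKM in LKO_NASH livers, against 50.1 to 80.4 FPKM in WT_NASH livers, and over 44.7 to 47.8 FPKM in Ad_Chrebpa_HFLMCD livers, against 39.0 to 48.5 FPKM in Ad_GFP_HFLMCD livers. The groups overlapped in both experiments, with edgeR adjusted p = 0.916 and 0.241, and a gene total cannot separate isoforms or show a deleted exon. The measured RNA therefore gives no check of the labels, and every direction below is between groups as labelled. In RNA of whole tissue, fewer cells of a type and less RNA per cell cannot be told apart.

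In livers labelled Ad_Chrebpa_HFLMCD, 6 of the 10 genes were higher than in Ad_GFP_HFLMCD livers and none was lower by edgeR's quasi-likelihood test, where 4.95% of 13658 genes were called higher and 3.18% lower, 8.13% in all (called means a Benjamini-Hochberg adjusted p below 0.05 over all genes tested). The sterol exporters Abcg8 and Abcg5 rose 2.06-fold and 1.73-fold, hepatic lipase 1.58-fold and Lcat 1.47-fold. Scarb1 and Apoa1 rose by smaller amounts, 1.23-fold and 1.26-fold. Abca1, Abcg1, Pltp and Apoa2 were not called. The median log2 fold change of the 10 genes was 0.32, against -0.01 over all genes tested.

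**Figure D1:**
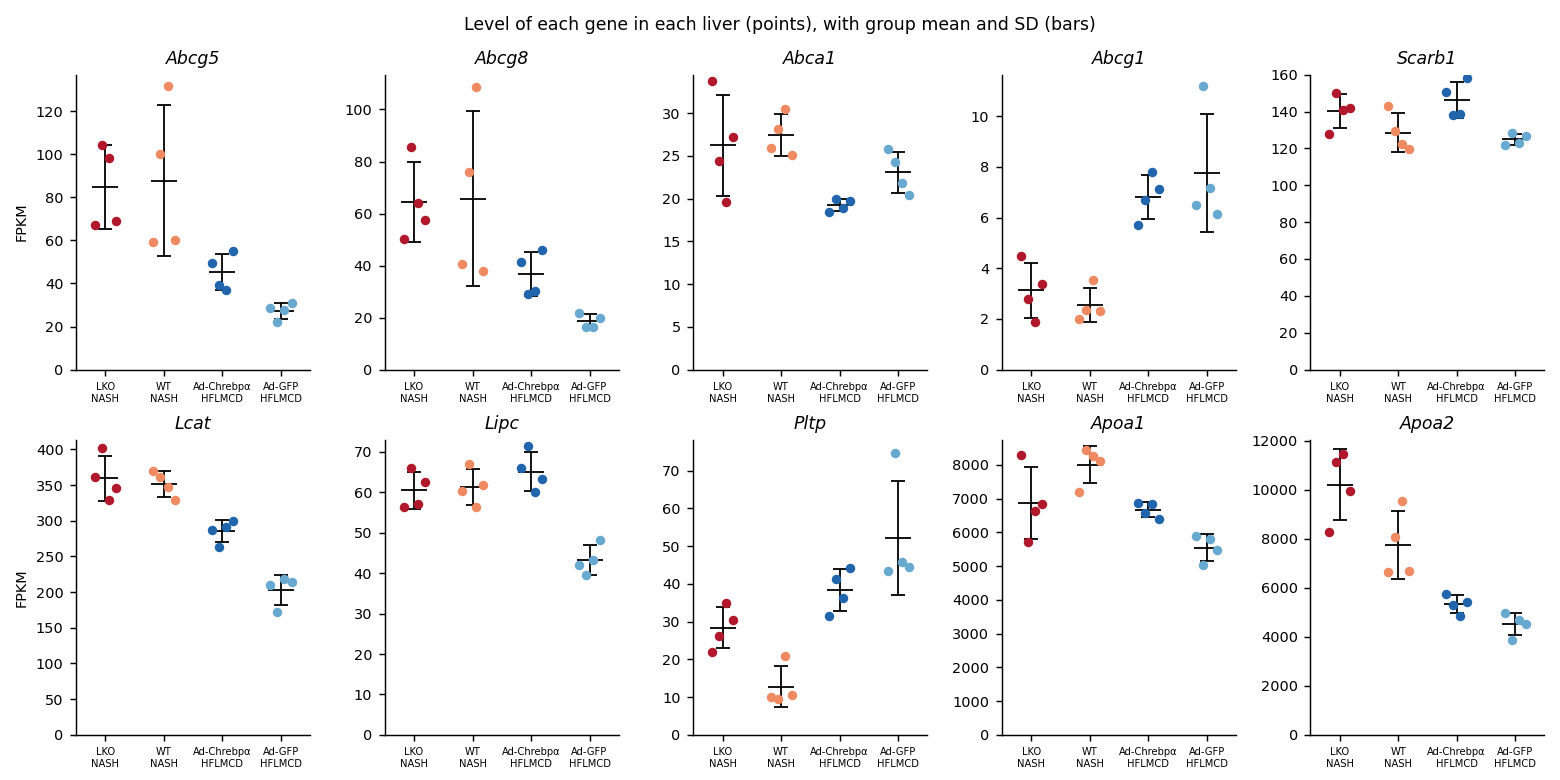
Level of each of the 10 genes in each liver in FPKM (vertical axes, each starting at 0), with 4 points per group and bars for the group mean and SD; Apoa2 is the sum of its transcript entries. In Abcg5, Abcg8, Lcat and Lipc all 4 Ad_Chrebpa_HFLMCD livers lie above all 4 Ad_GFP_HFLMCD livers, and in Pltp all 4 LKO_NASH livers lie above all 4 WT_NASH livers.

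Among the transporters, Abcg5 stood at 49.4, 39.3, 37.0 and 55.0 FPKM in Ad_Chrebpa_HFLMCD livers, against 28.6, 22.1, 27.8 and 30.9 FPKM in Ad_GFP_HFLMCD livers. The groups did not overlap, and the log2 fold change was 0.79 (SE 0.15, edgeR adjusted p = 0.0148). Its partner Abcg8 measured 41.4, 29.1, 30.1 and 46.0 FPKM with Chrebpα virus, against 21.9, 16.4, 16.4 and 20.0 FPKM with GFP virus. Livers 13 and 16 were the highest of their group in both genes, and the log2 fold change of Abcg8 was 1.04 (SE 0.17, edgeR adjusted p = 0.00814). Abca1, which feeds cholesterol to nascent HDL, read 18.5, 20.0, 19.0 and 19.7 FPKM with Chrebpα virus, against 25.9, 24.2, 21.9 and 20.4 FPKM with GFP virus. Every Ad_Chrebpa_HFLMCD liver was below every Ad_GFP_HFLMCD liver, yet the log2 fold change of -0.19 was not called (95% interval -0.36 to -0.02, edgeR adjusted p = 0.144). Abcg1 had 5.69, 6.70, 7.78 and 7.12 FPKM in Ad_Chrebpa_HFLMCD livers, against 6.50, 11.2, 7.16 and 6.13 FPKM in Ad_GFP_HFLMCD livers. Liver 10 stood above the rest, the groups overlapped, and the log2 fold change was -0.10 (interval -0.47 to 0.26, edgeR adjusted p = 0.726).

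Lcat, which esterifies the cholesterol of HDL, reached 286.6, 263.4, 290.6 and 300.0 FPKM in Ad_Chrebpa_HFLMCD livers, against 209.3, 172.0, 217.9 and 214.4 FPKM in Ad_GFP_HFLMCD livers. The log2 fold change was 0.56 (SE 0.09, edgeR adjusted p = 0.00947), and the groups were apart. Lipc gave 65.9, 71.4, 60.0 and 63.3 FPKM with Chrebpα virus, against 42.0, 39.4, 43.3 and 48.2 FPKM with GFP virus. Its groups were also apart, and at a log2 fold change of 0.66 (SE 0.08, edgeR adjusted p = 0.00261) it had the lowest p of the 10 genes. Pltp, which transfers phospholipid to HDL, was 31.6, 41.3, 36.2 and 44.1 FPKM in Ad_Chrebpa_HFLMCD livers, against 43.4, 74.8, 45.8 and 44.5 FPKM in Ad_GFP_HFLMCD livers. The groups overlapped slightly, liver 10 was again far above the rest, and the log2 fold change of -0.37 was not called (edgeR adjusted p = 0.181); it was -0.16 without liver 10.

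Scarb1, the hepatic HDL receptor, was at 150.6, 138.0, 138.7 and 158.1 FPKM in Ad_Chrebpa_HFLMCD livers, against 121.8, 128.2, 122.9 and 126.5 FPKM in Ad_GFP_HFLMCD livers. The difference was small but the groups did not overlap (log2 fold change 0.30, SE 0.06, edgeR adjusted p = 0.0200). Apoa1, the main protein of HDL, measured 6881, 6573, 6829 and 6410 FPKM with Chrebpα virus, against 5882, 5018, 5815 and 5490 FPKM with GFP virus. These groups too were apart, at a log2 fold change of 0.33 (SE 0.09, edgeR adjusted p = 0.0423). Apoa2, the second HDL apolipoprotein, gave 5741, 5297, 4846 and 5402 FPKM in Ad_Chrebpa_HFLMCD livers, against 4964, 3886, 4689 and 4531 FPKM in Ad_GFP_HFLMCD livers. Its log2 fold change of 0.31 was as large as that of Scarb1, but the groups overlapped and it was not called (edgeR adjusted p = 0.0942). DESeq2 alone called it, with adjusted p of 0.0314 to 0.293 over 16 alternatives.

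In all, 6 of the 10 genes had every Ad_Chrebpa_HFLMCD liver above every Ad_GFP_HFLMCD liver in FPKM, against 4.84% of all genes tested, and 1 (Abca1) had the reverse, against 14.5%. Abcg5, Abcg8, Lcat and Lipc were called in all 8 fits that left out 1 liver. Scarb1 was not called by edgeR without liver 11, 13 or 16 (adjusted p = 0.0515, 0.0564 and 0.0634), and Apoa1 was not called without liver 10, 11, 12, 13, 15 or 16 (highest adjusted p = 0.101). With all 16 libraries in 1 fit only Lcat and Lipc of the 10 genes were called. Over 16 alternatives the adjusted p ran from 0.000268 to 0.0965 for Scarb1 and from 0.000903 to 0.215 for Apoa1. On FPKM the 6 called genes of the 10 had the same direction, though the calls over all genes split otherwise, into 434 higher and 1014 lower by limma against 676 and 434 by edgeR.

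**Figure D2:**
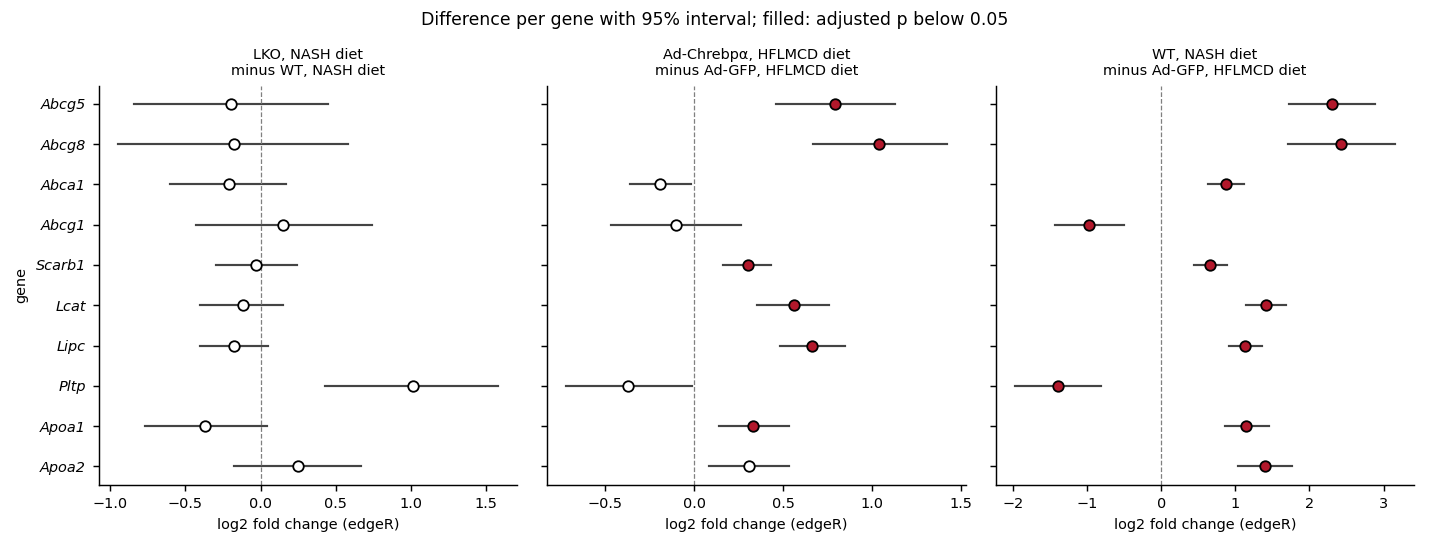
Log2 fold change of each gene from edgeR (horizontal axis, scale set per panel) with its 95% interval, for LKO_NASH minus WT_NASH, Ad_Chrebpa_HFLMCD minus Ad_GFP_HFLMCD and WT_NASH minus Ad_GFP_HFLMCD; filled points have an adjusted p below 0.05. No point is filled in the first panel, 6 are filled in the second and 10 in the third; on FPKM values, where the third comparison shifts by -0.48 for the median gene, Scarb1 in that panel is 0.04 and not called.

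The neighbours of these genes in the pathway were counted in 8 lists. Beside the 10 genes, 17 tested HDL apolipoproteins and carried proteins held 4 that rose in livers labelled Ad_Chrebpa_HFLMCD and 1 that fell (median log2 fold change 0.17, against -0.01 over all genes). The acute-phase apolipoproteins Saa1 (281.6 ± 87.6 FPKM against 140.1 ± 16.2 FPKM in Ad_GFP_HFLMCD, SD, n = 4 each; log2 fold change 1.07) and Saa2 (log2 fold change 1.16) rose, as did Apoa5, an activator of triglyceride clearance (0.33). Saa1 and Saa2 are close copies whose reads the counting may have split. Saa4 (0.37) and the lipoprotein lipase cofactor Apoc2 (-0.32), named after their values were seen, completed that count. Of 9 lipases, remodelling enzymes and inhibitors, 2 rose and none fell (median -0.01): Hsd11b1, which reactivates glucocorticoids (240.1 ± 21.5 FPKM against 174.0 ± 18.9 FPKM in Ad_GFP_HFLMCD, log2 fold change 0.53), and the lipase inhibitor Angptl4 (0.92). Among 7 receptors and adaptors (median -0.03) Gpld1, a phospholipase that circulates with apolipoprotein A-I, rose (0.39), and Pdzk1, the adaptor that holds SR-BI at the membrane, fell (27.6 ± 1.56 FPKM against 34.6 ± 1.33 FPKM in Ad_GFP_HFLMCD, log2 fold change -0.26).

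Of 15 genes for cholesterol storage and intracellular transport, 3 rose with Chrebpα virus and none fell (median 0.09): the lysosomal exporter Npc1 (49.8 ± 4.76 FPKM against 40.9 ± 0.916 FPKM in Ad_GFP_HFLMCD, log2 fold change 0.36), Soat2, the hepatocyte enzyme that makes cholesterol ester (0.39), and the sterol carrier Stard5 (0.25). On FPKM limma called 3 of this list higher and 3 lower. Of 7 genes for bile lipid export and cholesterol conversion 3 rose and none fell (median 0.26). These were the oxysterol enzyme Cyp27a1 (160.1 ± 6.85 FPKM against 123.7 ± 6.20 FPKM in Ad_GFP_HFLMCD, log2 fold change 0.44), the bile salt pump Abcb11 (0.47) and Cyp7b1, of the acidic bile acid pathway (0.75). Outside the naming rule, and chosen after their values were seen, are Cyp7a1, Nr1h3 and Srebf1. Cyp7a1, which starts the classical bile acid pathway, averaged 31.7 ± 21.9 FPKM against 51.3 ± 7.58 FPKM in Ad_GFP_HFLMCD and was not called (edgeR adjusted p = 0.333). Among 15 sterol-sensing receptors and partners (median 0.10) Ppara rose (0.49) and Pparg fell (-0.59), while Nr1h3, the gene of LXRα, was at 51.9 ± 4.27 FPKM against 59.9 ± 2.46 FPKM in Ad_GFP_HFLMCD and was not called (edgeR adjusted p = 0.192). A further 10 genes were listed as other LXR targets (median 0.15), though their control by LXR was not tested. Of these edgeR called only the transporter Abca6 (log2 fold change 0.45, 40.1 ± 4.10 FPKM against 31.1 ± 3.05 FPKM in Ad_GFP_HFLMCD). Srebf1, the lipogenic LXR target among them, averaged 46.9 ± 8.35 FPKM against 71.8 ± 11.3 FPKM in Ad_GFP_HFLMCD and was not called (log2 fold change -0.54, edgeR adjusted p = 0.0562). In this list DESeq2 called 2 higher and 1 lower, and limma on FPKM 1 higher and 1 lower. Of 10 SREBP2 targets, which respond to low sterol, edgeR called none higher and 1 lower, and DESeq2 1 higher and 1 lower (median -0.17).

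Cyp27a1, Npc1, Hsd11b1, Pparg, Saa1, Saa2 and Abca6 kept their calls in all 8 fits that left out 1 liver. Gpld1, Ppara, Soat2 and Abcb11 lost theirs without liver 16, and Apoa5 without liver 12, 15 or 16. Saa4 lost its call without liver 11, 12, 13 or 16. Angptl4 and Pdzk1 lost theirs without liver 9, 11, 12, 13, 15 or 16, Stard5 and Cyp7b1 without liver 9, 10, 12, 13, 15 or 16, and Apoc2 without any liver but 14. With all 16 libraries in 1 fit, Abca6, Angptl4, Gpld1, Ppara and Soat2 were called, and the other genes named here as changed were not: the HDL protein and bile lists then held 0 called genes. As for other cell types, 16 macrophage markers summed to 1230 to 1825 FPKM in Ad_Chrebpa_HFLMCD livers, against 1421 to 2243 FPKM in Ad_GFP_HFLMCD livers, with 1 called higher. Of 6 hepatocyte markers 1 was called higher (median log2 fold change 0.21). Of 6 cholangiocyte markers 4 were called lower (summed 93.4 to 140.0 FPKM against 118.0 to 284.0 FPKM in Ad_GFP_HFLMCD). Most of that sum was Spp1, also among the macrophage markers, at 104.5 ± 20.8 FPKM against 180.8 ± 68.3 FPKM in Ad_GFP_HFLMCD. Erythroid markers split, with 2 of 4 called higher and 1 lower. Hba-a2 averaged 129.3 ± 62.5 FPKM against 2.03 ± 0.307 FPKM in Ad_GFP_HFLMCD. Hba-a1 went the other way, at 294.8 ± 122.0 FPKM against 593.6 ± 114.0 FPKM in Ad_GFP_HFLMCD. The cause of this split was not tested. The part of these cells in the results for the 10 genes was not tested.

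In livers labelled LKO_NASH, none of the 10 genes passed the test against WT_NASH livers. edgeR called 0% of 12786 genes (lowest adjusted p 0.242), although an unadjusted p under 0.05 was reached by 985 genes upwards and 752 downwards. DESeq2 called 90 higher and 68 lower. Pltp stood furthest apart, about 2-fold higher in LKO_NASH. The median log2 fold change of the 10 genes was -0.15, against 0.01 over all genes tested.

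Pltp measured 22.1, 26.3, 35.0 and 30.4 FPKM in LKO_NASH livers, against 9.98, 9.55, 20.9 and 10.7 FPKM in WT_NASH livers. All LKO_NASH livers lay above all WT_NASH livers, as in 6.93% of all genes tested, although liver 19 came close to liver 21. The log2 fold change was 1.01 (SE 0.25, interval 0.43 to 1.58), with an unadjusted p of 0.00325 and an edgeR adjusted p of 0.305. DESeq2 called it (adjusted p = 0.0262). Without liver 19 the log2 fold change was 1.34 (edgeR adjusted p = 0.181), and without livers 19 and 21 together, a choice made after seeing the data, it was 1.42 and called (edgeR adjusted p = 0.0106). Over all 17 alternatives it was positive, at 0.87 to 1.42, with adjusted p of 0.0106 to 0.665.

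The 16 macrophage markers summed to 163.0 to 387.0 FPKM in LKO_NASH livers, against 123.0 to 218.0 FPKM in WT_NASH livers. All 16 had a positive log2 fold change (median 0.75), none was called, and none was at 0. Within LKO_NASH the highest Pltp, in liver 23, stood beside the lowest marker sum, and the lowest Pltp, in liver 21, beside the highest. Sinusoidal endothelium markers were positive in 7 of 8 (median 0.32; summed 70.5 to 125.0 FPKM in LKO_NASH livers, against 54.7 to 78.3 FPKM in WT_NASH livers). T and NK cell markers were positive in 3 of 3 tested (median 0.98), erythroid markers in 4 of 4 (0.52) and hepatocyte markers in 1 of 6 (-0.44), with none called. The part of these cells in the Pltp difference was not tested.

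**Figure D3:**
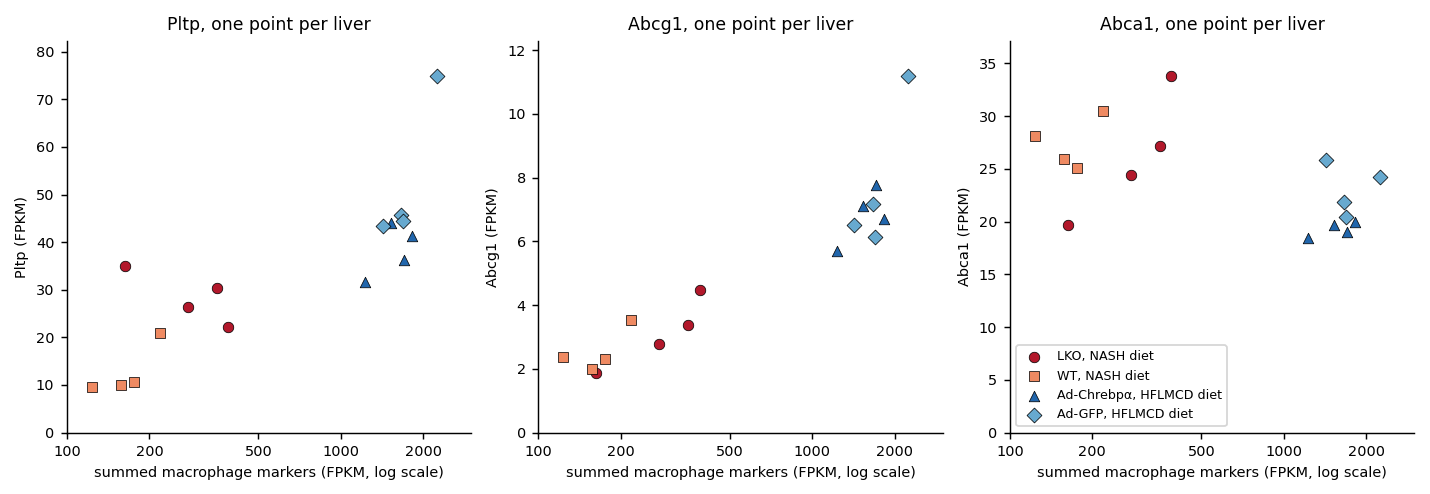
FPKM of Pltp, Abcg1 and Abca1 (vertical axes) against the summed FPKM of 16 macrophage and Kupffer cell markers (horizontal log axis), 1 point per liver, shape and colour by group. Liver 10 of Ad_GFP_HFLMCD is the topmost point for Pltp (74.8 FPKM) and Abcg1 (11.2 FPKM) and has the highest marker sum (2243 FPKM).

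The exporters were uneven within the NASH diet groups. Abcg5 stood at 67.1, 104.5, 98.4 and 69.2 FPKM in LKO_NASH livers, against 59.1, 100.3, 131.6 and 60.4 FPKM in WT_NASH livers. Abcg8 followed with 50.4, 85.7, 64.1 and 57.5 FPKM in LKO_NASH livers, against 40.4, 75.8, 108.8 and 38.0 FPKM in WT_NASH livers. Livers 18 and 19 were high and 17 and 20 low in both genes, the groups overlapped, and the intervals of the log2 fold change were wide, -0.84 to 0.45 for Abcg5 and -0.95 to 0.58 for Abcg8. Abca1 had 33.8, 24.4, 19.7 and 27.2 FPKM in LKO_NASH livers, against 26.0, 28.1, 30.5 and 25.1 FPKM in WT_NASH livers, spreading more widely in LKO_NASH (log2 fold change -0.21, interval -0.60 to 0.17). Abcg1 was low, at 4.48, 2.79, 1.88 and 3.39 FPKM in LKO_NASH livers, against 1.99, 2.36, 3.54 and 2.30 FPKM in WT_NASH livers, and liver 21 was highest in both efflux genes (log2 fold change of Abcg1 0.15, interval -0.43 to 0.74).

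Lcat, Lipc and Scarb1 overlapped between the NASH diet groups. Lcat was 361.1, 401.9, 329.0 and 345.8 FPKM in LKO_NASH livers, against 369.6, 361.2, 347.2 and 329.0 FPKM in WT_NASH livers. Lipc was 56.4, 66.0, 57.2 and 62.5 FPKM in LKO_NASH livers, against 60.4, 67.1, 56.3 and 61.9 FPKM in WT_NASH livers. Scarb1 was 127.8, 150.0, 140.9 and 141.8 FPKM in LKO_NASH livers, against 143.0, 129.4, 122.5 and 119.6 FPKM in WT_NASH livers. None was called, with 95% intervals of the log2 fold change of -0.40 to 0.15 for Lcat, -0.40 to 0.05 for Lipc and -0.30 to 0.24 for Scarb1. On FPKM, where the median gene was 0.113, the log2 fold change was 0.12 for Scarb1, 0.03 for Lcat, 0.00 for Abcg5 and 0.08 for Abcg8. By edgeR these were -0.03, -0.12, -0.20 and -0.18, so their signs were not stable. What turned them was not tested.

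The apolipoproteins stood on opposite sides of their controls without a call. Apoa1 measured 8305, 5720, 6631 and 6839 FPKM in LKO_NASH livers, against 7195, 8449, 8262 and 8120 FPKM in WT_NASH livers. Apoa2 measured 8256, 11138, 11448 and 9938 FPKM in LKO_NASH livers, against 6643, 8087, 9537 and 6670 FPKM in WT_NASH livers. Liver 21 had the highest Apoa1 and the lowest Apoa2 of LKO_NASH. Neither gene was called, at log2 fold changes of -0.37 for Apoa1 (interval -0.77 to 0.04, edgeR adjusted p = 0.397) and 0.25 for Apoa2 (interval -0.18 to 0.67, edgeR adjusted p = 0.527).

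In edgeR's fit of the LKO_NASH and WT_NASH livers, none of the 8 pathway lists held a called gene. In each list the genes with the lowest p are given, none of them called in that fit. DESeq2 and the fit of all 16 libraries called Apoc2 higher, and the fit of all 16 also called Atp8b1 lower. Among the HDL proteins these were Apoc2 (540.5 ± 74.1 FPKM in LKO_NASH, 311.8 ± 68.0 FPKM in WT_NASH) and Apom, the sphingosine phosphate carrier of HDL (146.4 ± 42.7 FPKM in LKO_NASH, 215.3 ± 38.8 FPKM in WT_NASH). Among the lipases the endothelial lipase gene Lipg had a log2 fold change of 1.08 and the lipase anchor Gpihbp1 0.25. Among the receptors the scavenger receptor Cd36 stood at 1.31. In storage and transport Soat1, the cholesterol esterifying enzyme of macrophages among other cells, stood at 0.75, and the lysosomal carrier Npc2 at 0.29. For bile, the lipid flippase gene Atp8b1 stood at -0.54 and Cyp7b1 at -0.90. Nr0b2 (0.90), which represses bile acid synthesis, and Rxra (-0.27), the partner receptor of LXR, were likewise not called. Nor were Arl4c (0.59) and Abca9 (0.63), from the list of other LXR targets. In the SREBP2 list all 10 genes had a positive log2 fold change, with a median of 0.20 and the lowest p for Hmgcs1 (0.66, edgeR adjusted p = 0.356) and Fdft1 (0.32, edgeR adjusted p = 0.499) of cholesterol synthesis. The list medians otherwise ran from -0.14, in the HDL proteins and the other LXR targets, to 0.19 in the lipases. Without livers 19 and 21, a choice made after seeing the data, the same lists held 7 genes called higher and 6 lower. Over all 12819 genes tested, that fit called 621 higher and 904 lower. Of the list genes, Cd36, Apoc2, Lipg, Npc2 and Hmgcs1 were among the higher and Apom, Atp8b1 and Cyp7b1 among the lower. Without liver 21 alone edgeR called 420 genes in all, Apoc2, Lipg, Hmgcs1, Apom and Atp8b1 among them.

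Apoa2 needs its deposited entries to be read together. The entry that carries the symbol, transcript NM_013474, held 44.8% to 46.8% of the gene's expected counts in LKO_NASH livers, against 42.3% to 46.4% in WT_NASH livers. NM_001305549, listed without a symbol, held 52.2% to 54.3% in LKO_NASH livers, against 52.5% to 57.0% in WT_NASH livers. NM_001305550 and NM_001305585, also without a symbol, held at most 1.16% and 0.214% in any liver. A search by symbol alone therefore returned 41.5% to 46.8% of the Apoa2 counts of a liver. The share of NM_001305549 averaged 56.1% ± 0.568 in Ad_Chrebpa_HFLMCD livers and 56.0% ± 1.16 in Ad_GFP_HFLMCD livers (SD, n = 4 each; exact permutation p = 0.886), and estimated counts of such similar transcripts cannot be split with certainty. The entry with the symbol alone gave an Apoa2 log2 fold change of 0.30 in the virus comparison and 0.29 in the deletion comparison, neither called by edgeR.

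**Figure D4:**
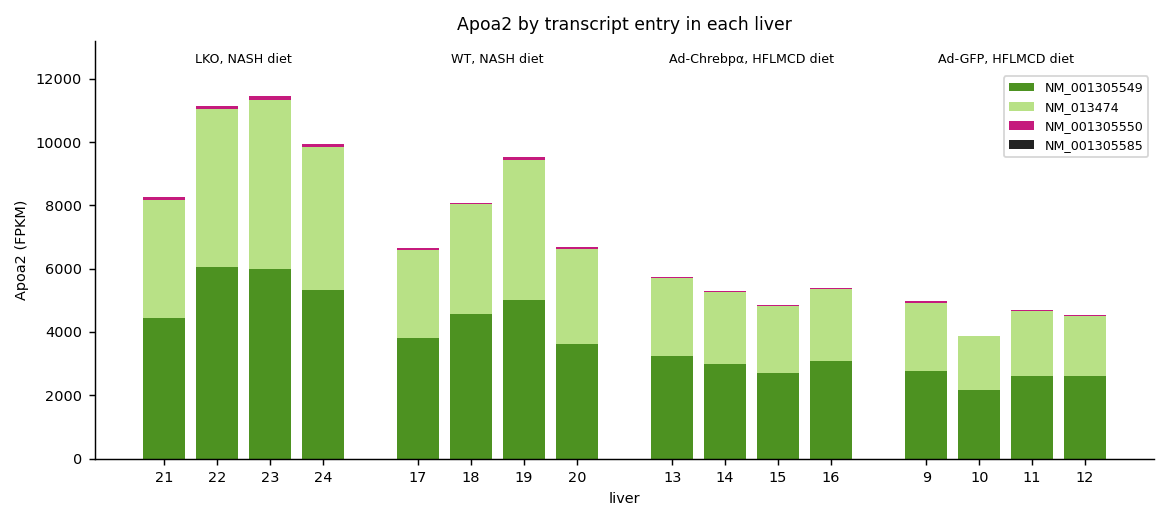
FPKM of the 4 Apoa2 transcript entries, stacked, in each liver (horizontal axis, grouped by LKO_NASH, WT_NASH, Ad_Chrebpa_HFLMCD and Ad_GFP_HFLMCD). NM_001305549 makes up the larger block in all 16 livers, the total reaches 11448 FPKM in liver 23 of LKO_NASH, and it is lowest, 3886 FPKM, in liver 10 of Ad_GFP_HFLMCD.

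The control groups of the experiments differed in all 10 genes: 8 were called higher and 2 lower in WT_NASH than in Ad_GFP_HFLMCD livers, where 28.2% of 13488 genes were called higher and 30.9% lower, 59.1% in all. Abcg8 and Abcg5 stood furthest apart, 5.40-fold and 4.95-fold higher in WT_NASH, and Pltp and Abcg1 were the 2 lower genes. Diet, its duration, the virus, the mouse line and the experiment all differ between these groups and cannot be told apart. The size of each difference depends on scaling. On the authors' FPKM the median gene was -0.48 (log2), against -0.01 after TMM normalisation of counts, and limma called 688 genes higher and 8843 lower, against edgeR's 3805 higher and 4166 lower.

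Abcg5 ranged over 59.1 to 131.6 FPKM in WT_NASH livers, against 22.1 to 30.9 FPKM in Ad_GFP_HFLMCD livers. Its log2 fold change was 2.31 by edgeR (adjusted p = 5.27e-05) and 1.57 on FPKM, which is 2.06 above the median gene. Abcg8 ranged over 38.0 to 108.8 FPKM in WT_NASH livers, against 16.4 to 21.9 FPKM in Ad_GFP_HFLMCD livers (edgeR 2.43, FPKM 1.64). Lcat (edgeR 1.42, FPKM 0.79), Apoa2 (1.40 and 0.76), Apoa1 (1.15 and 0.53), Lipc (1.13 and 0.50) and Abca1 (0.87 and 0.24) were called higher by both edgeR and limma; Apoa1 lost the limma call without the filter on low FPKM (adjusted p = 0.095). Scarb1, at 119.6 to 143.0 FPKM in WT_NASH livers and 121.8 to 128.2 FPKM in Ad_GFP_HFLMCD livers, was called on counts by edgeR (0.66) and DESeq2 (0.67) but not by limma on FPKM, where its log2 fold change was 0.04.

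Pltp ranged over 9.55 to 20.9 FPKM in WT_NASH livers, against 43.4 to 74.8 FPKM in Ad_GFP_HFLMCD livers, and Abcg1 over 1.99 to 3.54 FPKM in WT_NASH livers, against 6.13 to 11.2 FPKM in Ad_GFP_HFLMCD livers. Both were lower in WT_NASH on either scale (edgeR log2 fold change -1.40 and -0.97, FPKM -1.98 and -1.29). Groups did not overlap in FPKM in 6 genes that were higher in WT_NASH, against 4.51% of all genes tested, and in 2 that were lower, against 68.9%. Macrophage markers moved with Pltp and Abcg1: they summed to 123.0 to 218.0 FPKM in WT_NASH livers, against 1421 to 2243 FPKM in Ad_GFP_HFLMCD livers, with 14 of 16 called lower (median log2 fold change -2.40) and none at 0. All 6 tested hepatocyte markers were called higher by edgeR (median 1.18), beside the 8 genes that were higher. In mean FPKM Apob among them was lower in WT_NASH (459.6 FPKM against 476.6 FPKM in Ad_GFP_HFLMCD), and the other tested markers were higher. Erythroid markers were called higher (4 of 4), and those of T and NK cells (5 of 5), neutrophils (3 of 3 tested), stellate cells (5 of 7) and cholangiocytes (3 of 6) lower. The part of these cell types was not tested.

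The pathway lists are read against the 59.1% of all genes called between the controls, and most of their splits depend on scaling. All 10 SREBP2 targets were called lower in WT_NASH (median log2 fold change -1.44), and limma on FPKM also called all 10 lower. Among them Sqle of sterol synthesis was at 0.618 ± 0.255 FPKM against 31.4 ± 5.05 FPKM in Ad_GFP_HFLMCD, with Idi1 (-3.01) beside it. The part of the diets in this difference was not tested. In the other lists the genes named are those with the lowest adjusted p, not the largest changes. Of 17 HDL apolipoproteins and carried proteins 11 were called higher and 1 lower by edgeR (6 and 6 by limma on FPKM), with Apoc1 at 1.70, Apoc3 at 1.16 and Apoa5 at 1.09. Of 7 bile genes 4 were called higher and none lower (3 and 3 on FPKM), with Cyp7b1 at 2.87, Cyp27a1 at 1.32 and Cyp8b1 at 2.47. Receptors and partners had 10 called higher and 2 lower of 15 (3 and 8 on FPKM), with Ppara at 1.23, Rxra at 0.91 and Hnf4a at 1.09. The list of other LXR targets split, 5 higher and 3 lower of 10 (1 and 5 on FPKM), with Abca6 at 0.94 and the low-level genes Abca9 (-1.78) and Arl4c (-1.71). Lipases and their regulators had 4 higher and 3 lower of 9 (2 and 4 on FPKM), with Hsd11b1 and Angptl4 both at 1.58 and lipoprotein lipase (Lpl) at -2.85. Storage genes had 5 higher and 7 lower of 15 (0 and 13 on FPKM), with Soat1 at -3.00, Npc2 at -1.13 and Osbpl2 at 0.42. Receptors and adaptors had 1 higher, Gpld1 (0.53), and 4 lower of 7 (0 and 5 on FPKM), with Sort1 at -1.52. On FPKM Osbpl2 was -0.19 and called lower, the reverse of its edgeR call, and Gpld1 was -0.10 and not called.

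Over the 4 groups the exporters had 1 order. Abcg5 averaged 84.8 ± 19.4 FPKM in LKO_NASH and 87.8 ± 34.9 FPKM in WT_NASH, which overlapped, then 45.2 ± 8.47 FPKM in Ad_Chrebpa_HFLMCD and 27.3 ± 3.72 FPKM in Ad_GFP_HFLMCD (SD, n = 4 each), each apart from its neighbour. Abcg8 had the same order of means, at 64.4 ± 15.2 FPKM in LKO_NASH, 65.8 ± 33.5 FPKM in WT_NASH, 36.7 ± 8.37 FPKM in Ad_Chrebpa_HFLMCD and 18.7 ± 2.70 FPKM in Ad_GFP_HFLMCD. Its Ad_Chrebpa_HFLMCD livers lay apart from LKO_NASH and Ad_GFP_HFLMCD livers. They overlapped WT_NASH livers, the lowest of which had 38.0 FPKM, against up to 46.0 FPKM in Ad_Chrebpa_HFLMCD. Lcat had LKO_NASH (359.4 ± 31.2 FPKM) and WT_NASH (351.7 ± 17.8 FPKM) overlapping at the top, above Ad_Chrebpa_HFLMCD (285.1 ± 15.6 FPKM) and Ad_GFP_HFLMCD (203.4 ± 21.2 FPKM). In Lipc, LKO_NASH (60.5 ± 4.54 FPKM), WT_NASH (61.4 ± 4.46 FPKM) and Ad_Chrebpa_HFLMCD (65.1 ± 4.83 FPKM) overlapped, and Ad_GFP_HFLMCD (43.2 ± 3.66 FPKM) lay below them. Pltp and Abcg1 had the reverse pattern, lowest in WT_NASH (12.8 ± 5.44 and 2.55 ± 0.681 FPKM) and highest in Ad_GFP_HFLMCD (52.1 ± 15.2 and 7.74 ± 2.33 FPKM). In Abca1 WT_NASH, LKO_NASH and Ad_GFP_HFLMCD overlapped as neighbours, and Ad_Chrebpa_HFLMCD lay below Ad_GFP_HFLMCD. In Scarb1 every neighbouring pair of groups overlapped. Per length, Apoa1 and Apoa2 were the most abundant of the 10 in every group and Abcg1 the least.

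Ratios within a liver do not depend on library scaling. For 6 ratios and 3 comparisons, 18 exact permutation tests were run, in which 4 livers against 4 cannot give a two-sided p below 0.0286, and none passed after adjustment over the family. Abcg5 over Abca1 was 2.68, 1.97, 1.95 and 2.79 in Ad_Chrebpa_HFLMCD livers, against 1.11, 0.912, 1.27 and 1.51 in Ad_GFP_HFLMCD livers. The groups were apart, with a mean log2 difference of 0.97 (exact permutation p = 0.0286, adjusted 0.103). Abcg5 alone and Abca1 alone were already apart between these livers, in opposite directions. The ratio therefore had to separate, and its p, fixed at the lowest possible value, adds no support. Scarb1 over Pdzk1 was 5.34 ± 0.666 in Ad_Chrebpa_HFLMCD and 3.62 ± 0.170 in Ad_GFP_HFLMCD (SD, n = 4 each, exact permutation p = 0.0286, adjusted 0.103), higher in 4 of 4 livers than in any control. This separation too was fixed in advance, since Scarb1 was apart upwards and Pdzk1 downwards in the same livers. Apoa2 over Apoa1 was 0.994, 1.95, 1.73 and 1.45 in LKO_NASH livers, against 0.923, 0.957, 1.15 and 0.822 in WT_NASH livers. Liver 21 fell within the WT_NASH range, and the mean log2 difference was 0.63 (exact permutation p = 0.0571, adjusted 0.171). Abcg5 over Abcg8 held between 1.19 and 1.69 in all 16 livers.

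**Figure D5:**
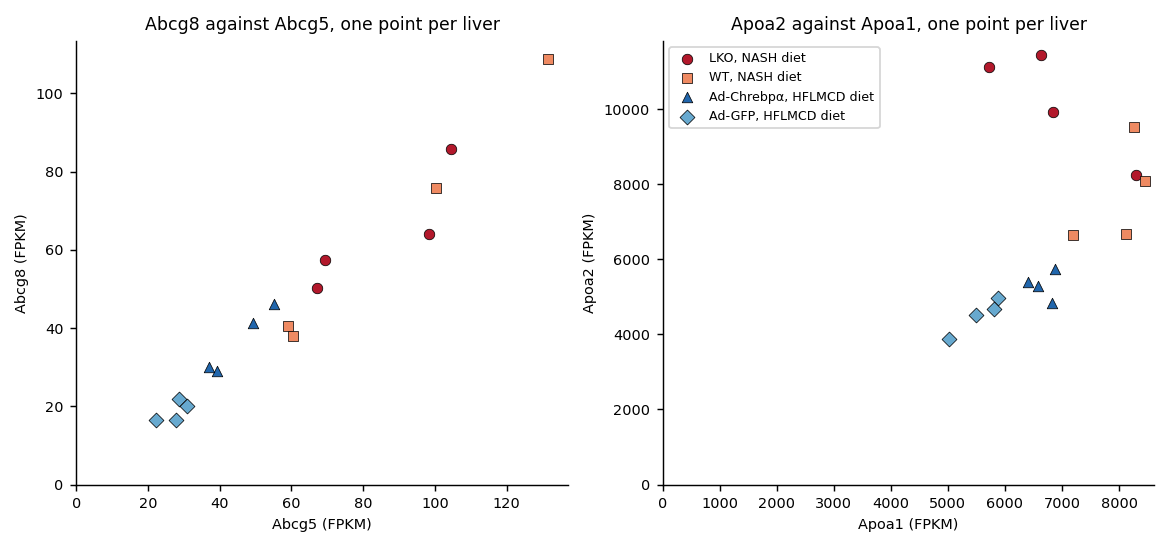
Left, Abcg8 against Abcg5, and right, Apoa2 against Apoa1, both in FPKM with axes from 0, 1 point per liver, shape and colour by group. Abcg5 and Abcg8 are high in the same livers, up to liver 19 of WT_NASH (131.6 and 108.8 FPKM), whereas 3 LKO_NASH livers have Apoa2 of 9938 FPKM or more at Apoa1 of 6839 FPKM or less.

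Deviations from the group mean were compared between genes over the 16 livers (Pearson r of log2(FPKM + 1), as a description, over 10921 genes of at least 1 FPKM). Abcg5 was most like Abcg8 (r = 0.95), and Apoa2 came next (0.89). Abcg8 had Pafah2 (0.90) as its next nearest. Abcg1 was closest to Cic, the macrophage pore-forming protein gene Mpeg1 and Pld4 (0.96 each), and Abca1 to Osbpl9 (0.92), with r = 0.76 between Abca1 and Abcg1. Pltp was nearest to Ssbp4 and Wdr41 (0.89 each) and to Plvap, of fenestrated endothelium (0.88). Nearest to Scarb1 stood Klf12 (0.91), to Lipc Nt5c (0.90), to Apoa2 Atp5g3 and Phyhd1 (0.94 each), to Apoa1 Rpl37 (0.83) and to Lcat Rbm48 (0.76). Between Apoa1 and Scarb1 r was -0.73, and between Apoa1 and Apoa2 it was -0.11. These points share library, depth and cell makeup. Abcg5 and Abcg8 also overlap on opposite strands in RefSeq through an upstream Abcg8 start, and no source used here says whether the counting used strand, so reads of an overlap cannot be told apart.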

How the data were processed

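Liver RNA was sequenced as 1 library per sample. Per the file headers, the authors deposited expected counts (estimated and unnormalised) and FPKM (scaled by length and library total). HISAT2 was used per the submitters' processing notes; no source used here gives its version, the counter, the strand setting, the annotation or the build. Genes under an FPKM of 0.01 are not listed and were taken as 0. Of 17436 entries, 26 named by transcript were matched through RefSeq and summed into their genes, 3 of them into Apoa2, giving 17410.

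In R 4.3.3, rounded expected counts went through edgeR 4.0.16 (filterByExpr, TMM, glmQLFit and glmQLFTest, two-sided), in 3 fits of 8 libraries over the groups compared, with Benjamini-Hochberg adjustment over all genes tested, a threshold of 0.05 and no minimum fold. Log2 fold changes are edgeR's unless another tool is named. Alternatives were DESeq2 1.42.0, its size factors, no filter, limma 3.58.1 on log2(FPKM + 1) and log2(FPKM + 0.1) with a mean FPKM of at least 0.5, on log2(FPKM + 1) without that filter, 1 fit of all 16 libraries, and leaving out each liver. Separate transcript entries, and leaving out livers 19 and 21 together, were added after seeing the data. "On FPKM" means limma on log2(FPKM + 1), which understates changes of low genes. The scripts were tested on simulated data. Ratios used exact permutation tests in SciPy 1.17.1. Promoter sequences are RefSeq's for GRCm38.p6; Abcg1 and Scarb1 had none.

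The 10 genes and the lists were chosen with earlier results of these data known. Named beside the 10 were, per list and comparison, up to 3 called genes with the lowest adjusted p, or otherwise the 2 with the lowest p, and for each gene those of the 3 nearest by correlation. Of the genes this rule took, 2 are not reported here. Groups come from the labels.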

Additional observations from a re-analysis of the deposited data

Results flagged for a closer look

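In 64 sets of 4 livers (10 genes and 6 within-liver measures in 4 groups), 2 values lay far from the other 3 by Dixon's 95% criterion, and chance gives about 1 such set in 20. Both were Pltp. In WT_NASH, liver 19 had 20.91 FPKM, while the other 3 livers had 9.55 to 10.7 FPKM; it also had the highest macrophage marker sum of its group (218.0 FPKM) and the highest Abcg1 (3.54 FPKM). In Ad_GFP_HFLMCD, liver 10 had 74.82 FPKM, while the other 3 livers had 43.4 to 45.8 FPKM; it also had the highest macrophage marker sum (2243 FPKM) and the highest Abcg1 (11.2 FPKM). Without liver 19 the Pltp log2 fold change of LKO_NASH minus WT_NASH was 1.34, against 1.01 with it, and without liver 10 that of Ad_Chrebpa_HFLMCD minus Ad_GFP_HFLMCD was -0.16, against -0.37 with it. The part of macrophages in these values was not tested.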

How the results depend on the processing

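The count of called genes among the 10 was 0 for LKO_NASH minus WT_NASH, 1 with DESeq2 and 1 without livers 19 and 21 (Pltp both times), and 0 to 0 when 1 liver was left out. For Ad_Chrebpa_HFLMCD minus Ad_GFP_HFLMCD it was 6, with 2 in the fit of all 16 libraries and 4 to 6 when 1 liver was left out. For WT_NASH minus Ad_GFP_HFLMCD it was 10, and 10 to 10 when 1 liver was left out. Over all genes, the virus comparison had 1110 calls by edgeR, 1944 by DESeq2, 336 with all 16 libraries in 1 fit, and 400 (without liver 16) to 1722 (without liver 14) when 1 liver was left out. The deletion comparison had 0 by edgeR, 158 by DESeq2, 152 with all 16 libraries, 420 without liver 21 and 1525 without livers 19 and 21. No paired analysis was possible because the replicate numbers, 9 to 24, are not shared between groups. The causes of these changes were not tested.

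Among the 10 genes, Mlxipl and the list genes named by the rule, directions turned only in values that were not called, apart from Gpld1 and Osbpl2. Some other list genes that edgeR called higher in WT_NASH than in Ad_GFP_HFLMCD had a lower mean FPKM in WT_NASH. In LKO_NASH minus WT_NASH, limma on log2(FPKM + 0.1), on log2(FPKM + 1) and without the filter gave 0.01, 0.00 and 0.00 for Abcg5, and the same value in all 3 for Abcg8 (0.08), Scarb1 (0.12) and Lcat (0.03). Without livers 19 and 21 Abcg5 was 0.13 and Abcg8 0.24. Leaving out 1 liver gave -0.37 to 0.04 for Abcg5 and -0.40 to 0.15 for Abcg8, both positive only without liver 19. It gave -0.10 (without liver 21) to 0.34 for Abcg1, -0.10 to 0.04 (without liver 17) for Scarb1 and -0.10 to 0.21 for Mlxipl, negative without liver 17, 20, 22 or 23. In Ad_Chrebpa_HFLMCD minus Ad_GFP_HFLMCD, Abcg1 was -0.19 to 0.10, positive only without liver 10. In WT_NASH minus Ad_GFP_HFLMCD, the same 3 limma settings gave -0.10 each for Gpld1, which they did not call. They gave -0.20, -0.19 and -0.19 for Osbpl2, called lower each time.

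Limits: 4 livers per group and a wide spread in LKO_NASH and WT_NASH (biological coefficient of variation 0.221, against 0.126 in the virus groups) left intervals that reach about 2-fold for the exporters. Abcg1 had as few as 240 counts in a liver.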
